A study of Mus musculus with 250 samples.

Results

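Heat shock chaperones, 9 of the 27003 genes in the deposited table, were followed over 250 single cells of mouse tail epidermis. They were taken by symbol, as Hspa1a, Hspa1b, Hspa8, Hsph1, Dnajb1, Hsp90aa1, Hsp90ab1, Hspb1 and Hspa5. All cells came from Lrig1CreER/Rosa-TdTomato mice, in which a tamoxifen-activated Cre under control of Lrig1 switches on a red reporter in cells that express Lrig1 at induction and in their progeny. In mouse skin Lrig1 is known as a stem cell marker above the bulge. Traced cells with Sca1 (Ly6a) on their surface were sorted for the upper hair follicle, and single cells were sequenced with Smart-Seq2, a full-length method without molecular identifiers. Wound bed cells numbered 30 in batch 1 and 55 in batch 2, distal cells from memory skin away from the wound 32 and 49, and control cells from skin without memory 28 and 56. Genotype, sort and the 8-week time were shared by all 3 regions, and the labels give neither the age at wounding nor any animal. Each of the 6 plates held cells of 1 region and 1 batch. A region is therefore 1 sample here, cells are not replicates, and no test between regions was possible. The question was how these chaperones were detected, how high they were per cell and whether they were high in the same cells.

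Chaperones bind unfolded or newly made proteins and help them to fold, and heat shock factor 1 (HSF1) switches on the inducible members when proteins misfold. HSP70 proteins (Hspa1a, Hspa1b, Hspa8) work with J-domain partners such as Dnajb1, which load their clients, and with HSP110 exchange factors such as Hsph1. HSP90 proteins (Hsp90aa1, Hsp90ab1) mature kinases and receptors, the small heat shock protein Hspb1 holds clients without ATP, and Hspa5 (BiP) is the HSP70 of the endoplasmic reticulum. In stratified epithelium Hspb1 is known as a protein of differentiating keratinocytes. Hspa8 and Hsp90ab1 are the constitutive forms, whereas Hspa1a, Hspa1b and Hsp90aa1 are the inducible ones.

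Hspa1a and Hspa1b are near-identical neighbours without introns, and their promoters are shown because the pair gave different values below. Promoters of 6 of the 9 genes were in the RefSeq table (GRCm38.p6), and each sequence is the 250 bases 5′ of the start site on the gene's own strand. Hspb1 is shown as the small heat shock gene with HSF1-type sites and Hspa5 as the gene with an endoplasmic reticulum stress element. Capitals mark GAANNTTC, an inverted pair of HSF1 units, in the first 3, and the stress element (CCAAT, 9 bases of any kind, then CCACG) in the last.
Hspa1a, chr17:34972157-34972406, minus strand: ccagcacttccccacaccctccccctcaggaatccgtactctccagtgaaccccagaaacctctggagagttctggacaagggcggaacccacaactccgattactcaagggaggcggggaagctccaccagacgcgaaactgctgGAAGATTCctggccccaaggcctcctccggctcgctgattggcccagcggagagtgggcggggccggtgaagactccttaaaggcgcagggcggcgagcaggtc
Hspa1b, chr17:34959239-34959488, minus strand: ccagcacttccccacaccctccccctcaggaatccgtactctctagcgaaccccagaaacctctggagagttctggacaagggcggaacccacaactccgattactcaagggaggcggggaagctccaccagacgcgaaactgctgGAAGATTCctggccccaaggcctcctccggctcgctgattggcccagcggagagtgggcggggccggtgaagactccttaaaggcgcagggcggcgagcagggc
Hspb1, chr5:135887669-135887918, plus strand: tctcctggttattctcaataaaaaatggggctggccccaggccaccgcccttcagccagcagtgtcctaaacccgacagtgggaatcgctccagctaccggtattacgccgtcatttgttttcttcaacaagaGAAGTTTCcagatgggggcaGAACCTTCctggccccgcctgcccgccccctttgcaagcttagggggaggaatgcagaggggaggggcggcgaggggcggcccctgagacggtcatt
Hspa5, chr2:34771840-34772089, plus strand: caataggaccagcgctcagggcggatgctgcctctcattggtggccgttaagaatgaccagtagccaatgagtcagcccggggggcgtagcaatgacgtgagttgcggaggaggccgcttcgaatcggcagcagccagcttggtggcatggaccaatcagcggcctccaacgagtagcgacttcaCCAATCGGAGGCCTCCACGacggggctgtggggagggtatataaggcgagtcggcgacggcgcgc
The Hspa1a and Hspa1b promoters were identical at 247 of 250 bases, and the differences from Hspa1a to Hspa1b were C44T, T47C and T249G, counted from 1 at the 5′ end. Both held GAANNTTC 104 to 97 bases before the start site. Hspb1 held it at 117 to 110 and at 97 to 90 bases before its start. Hsph1 held the other arrangement, TTCNNGAA, and no heat shock pair was in either Dnajb1 window of the table. Searched on both strands, one or the other pair was in 12.8% of all 32851 promoters of that length. These matches describe the letters alone. The stress element stood 65 to 47 bases before the Hspa5 start and was in 0.113% of all promoters; its first 5 letters are also a CCAAT box, a motif found in 33.8% of promoters.

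Reads per cell ranged from 3857 to 3119120 with a median of 49298, and plate sums from 1751116 to 10671470. Basal and suprabasal keratin markers were present on every plate. No cell of any plate had 3 or more markers of immune cells, of fibroblasts and endothelium, or of melanocytes. At least 3 of the 4 sebaceous gland markers in the table were read in 2 and 6 wound bed cells, 3 and 5 distal cells, and 2 and 5 control cells, and their summed level ran from 318 to 3084 CPM, highest in control batch 1. Upper hair follicle markers summed to 2351 and 12819 CPM in wound bed cells of batches 1 and 2, 4298 and 6896 CPM in distal cells, and 16625 and 28539 CPM in control cells. At least 3 of these 12 markers were read in 6 of 30 and 16 of 55 wound bed cells, 14 of 32 and 27 of 49 distal cells, and 19 of 28 and 37 of 56 control cells. Suprabasal markers summed to 37136 and 27935 CPM in wound bed cells, 21908 and 13668 CPM in distal cells, and 16010 and 15888 CPM in control cells. Cells rich in repeat-like reads, meaning over 5% of non-mitochondrial reads in 12 predicted genes, numbered 0 and 1 in wound bed, 2 and 1 in distal, and 18 and 6 in control plates. These values differed between regions beside every chaperone comparison. The part of the marker shifts in the results was not tested, and ratios without repeat-rich cells are given where they changed a call or a direction.

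Every cell had reads of at least 1 of the 9 chaperones, and 2 cells had reads of all 9. Hsp90ab1 was in 241 of 250 cells (96.4%, exact 95% interval 93.3 to 98.3) and Hspa8 in 230 (92%, 87.9 to 95). Hspa1b followed with 164 cells (65.6%), then Hsp90aa1 and Hspb1 with 129 cells each (51.6%), Dnajb1 with 95 (38%) and Hspa5 with 89 (35.6%). Hspa1a was in 30 cells (12%, 8.24 to 16.7) and Hsph1 in 18 (7.20%, 4.32 to 11.1). The constitutive cytosolic forms were thus the most widely detected and the exchange factor Hsph1 the least. Intervals cover counting error over cells only, because cells of a plate share library preparation and perhaps an animal. No cell type is known to lack these genes, so no background share from free RNA could be set beside them.

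**Figure D1:**
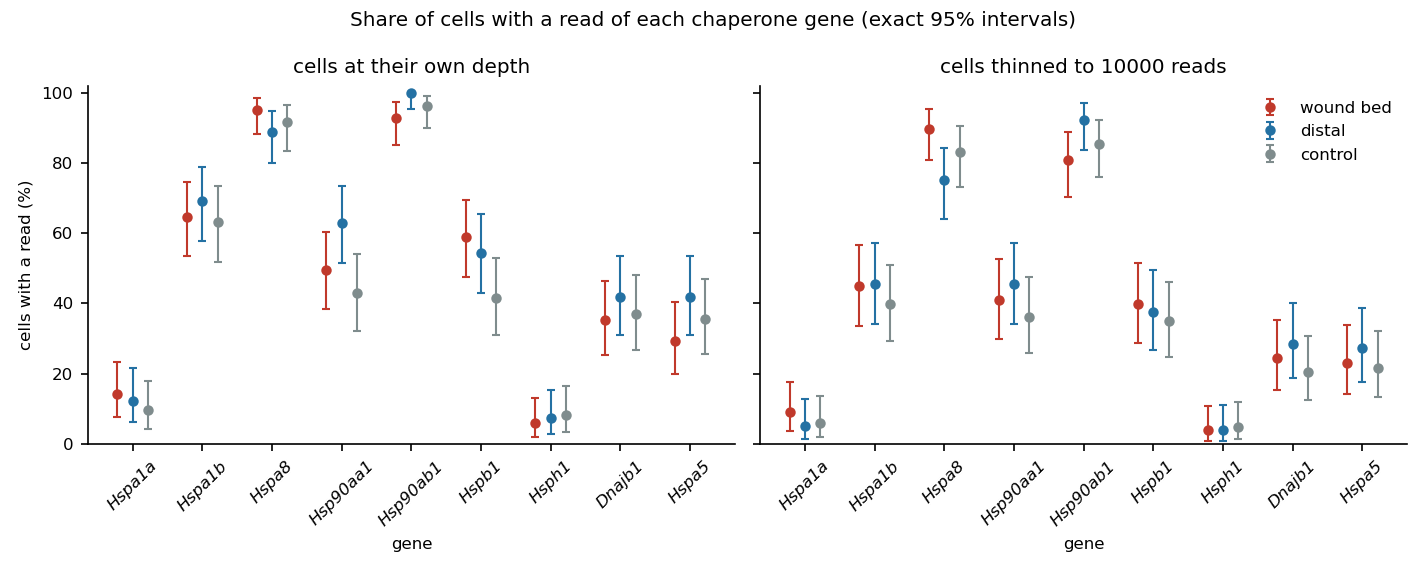
Share of wound bed, distal and control cells with a read of each chaperone gene (y axis, percent), at the cells' own depth on the left and thinned to 10000 reads on the right; points are shares and bars exact 95% intervals for counting error. Hsp90ab1 and Hspa8 are highest in each region and Hspa1a and Hsph1 lowest, and the regions' intervals overlap for every gene in the thinned panel.

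The plot of shares shows that detection varied more between genes than between regions. Median detected chaperones per cell were 4 and 4 in wound bed plates, 5 and 5 in distal plates, and 3.5 and 5 in control plates. Hsp90ab1 had a read in 81 of 81 distal cells, against 79 of 85 in the wound bed and 81 of 84 in control. All 81 distal cells held at least 5 of its reads, as did 65 in the wound bed and 74 in control. After thinning to 10000 reads, a read remained in 71 of 77 distal cells (92.2%), 63 of 78 cells of the wound bed (80.8%) and 71 of 83 cells of the control region (85.5%). Hspa8 was in 75.3% of thinned distal cells, 89.7% of thinned wound bed cells and 83.1% of thinned control cells. Exact intervals overlapped between regions for both genes.

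Levels below are counts summed per plate, scaled between plates by TMM and given as CPM, the usual unit relative to library size. Per kilobase of exon, the median over the 6 plates was highest for Hsp90ab1, at 278 CPM per kb, with a range of 233 to 481 that lay above every plate of Hspa8. Hsp90aa1 (97.2), Hspa8 (78) and Hspb1 (62.6) came next, with ranges of 33 to 287, 64.1 to 109 and 29 to 238 CPM per kb that overlapped each other. Hspa5 (31.6) and Hspa1b (31.5) followed, then Dnajb1 (16.1), and these ranges overlapped too. Hspa1a and Hsph1 were lowest, with medians of 2.55 and 1.58 CPM per kb. Their ranges were 0.287 to 10.6 and 0.156 to 5.75 CPM per kb, so the order of neighbours in this list was mostly within the spread over plates. The 9 genes together took between 0.155% and 0.300% of a plate's reads.

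**Figure D2:**
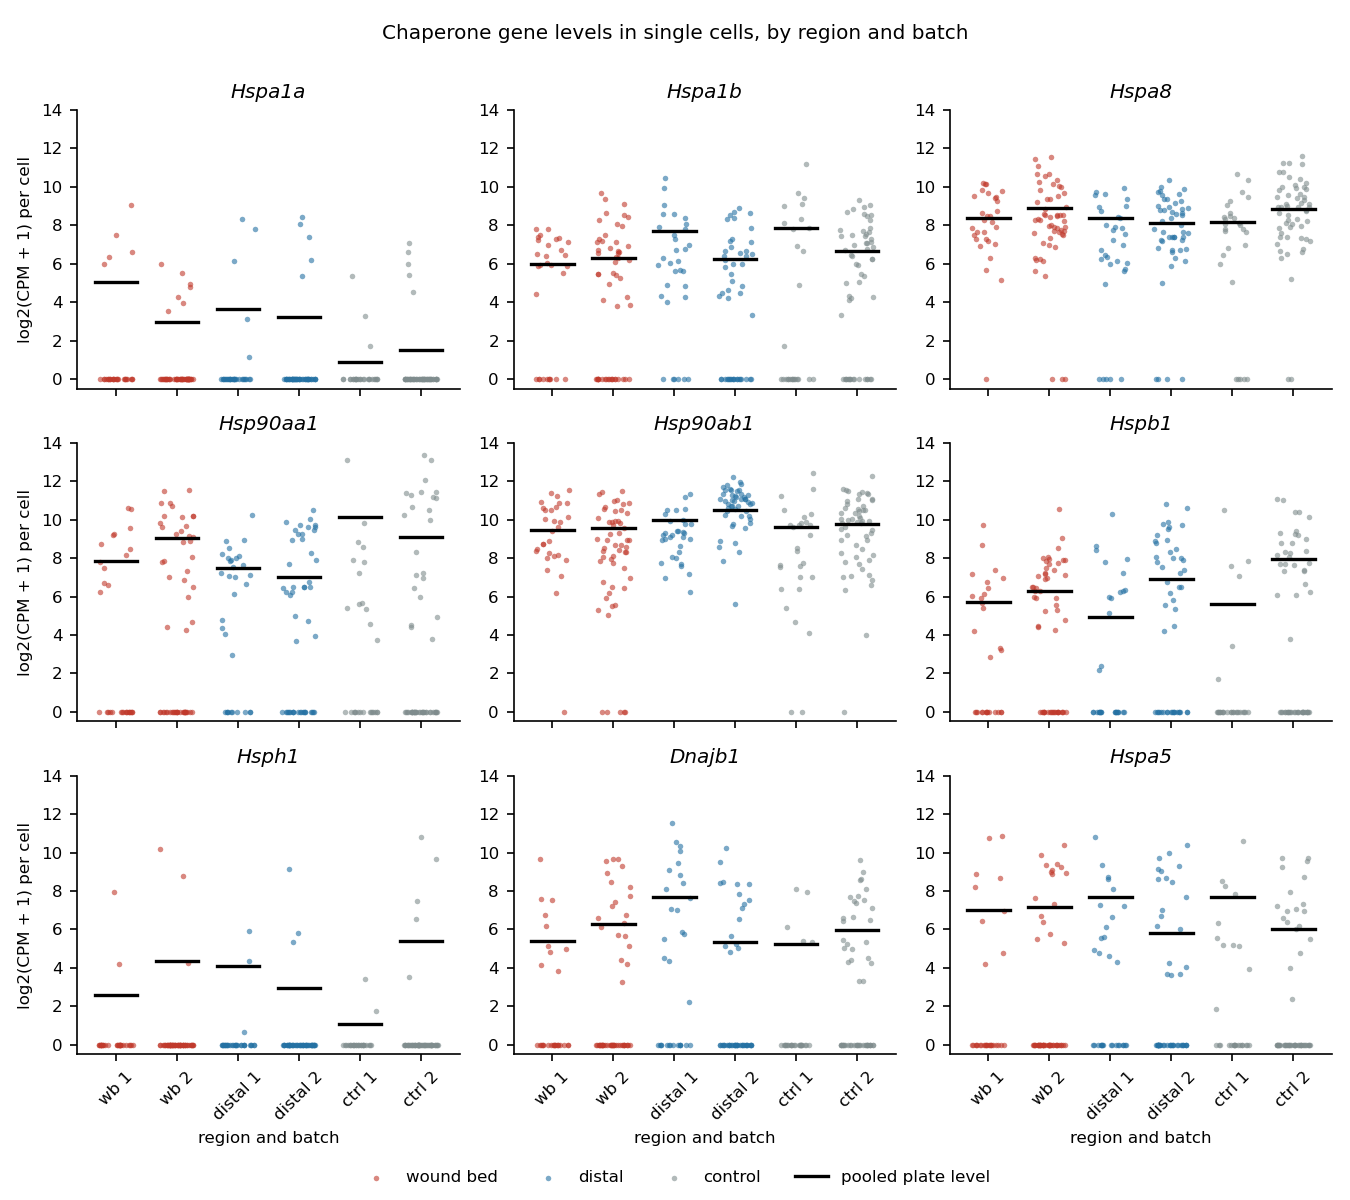
Level of each chaperone gene in every cell, as log2(CPM + 1) on the y axis, by region and batch on the x axis (wb, wound bed; ctrl, control). Dots are cells, and black bars the TMM-scaled level of all cells of a plate summed; Hspa8 and Hsp90ab1 fill nearly every cell, while the other genes split into cells at 0 and cells with reads.

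Gene positions are those of GENCODE on GRCm38. Regions were compared as the log2 ratio of (CPM + 1) within each batch. A gene met the size rule when both batch ratios were at least 1 in size with the same sign, among genes with a read in at least 10% of the cells of 1 or both regions in each batch. Wound bed and distal cells were both set against the same control cells, so those 2 comparisons are not independent. Hsph1 was too sparse to be considered, which left 8 of the 9 chaperones.

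Of the 8, Hspa1a was higher in the wound bed than in control and no chaperone was lower, where 16.1% of all 5776 genes considered met the rule, 7.83% higher and 8.24% lower. In distal over control, Hspa1a was higher and Hsp90aa1 lower, where 14.2% of 6356 genes met it, 8.07% higher and 6.09% lower. In distal over wound bed 0 of 8 met it, where 14.9% of 6285 genes did, 9.59% higher and 5.28% lower. These counts of 1, 2 and 0 of 8 lie near the shares over all genes. In the same order of comparisons, 11.7%, 13.2% and 14.3% of all genes reached the size in both batches with opposite signs. Meeting the rule was thus little more common than reaching its size in opposite directions. Median ratios of the 8 were -0.03 and -0.0042 in batches 1 and 2 for wound bed over control, beside 0.03 and -0.03 over all genes. They were 0.10 and -0.52 for distal over control, beside 0.23 and -0.07, and 0.25 and -0.42 for distal over wound bed, beside 0.25 and -0.02. Whatever its size, the same sign in both batches was seen in wound bed over control for 3 chaperones higher and 3 lower of 8, beside 27.3% and 27.4% of all genes. It was seen for 2 higher and 4 lower in distal over control, beside 26.7% and 23.9%, and for 1 higher and 1 lower in distal over wound bed, beside 27.4% and 21.4%. The chaperones did not share a direction in any of the 3 comparisons.

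**Figure D3:**
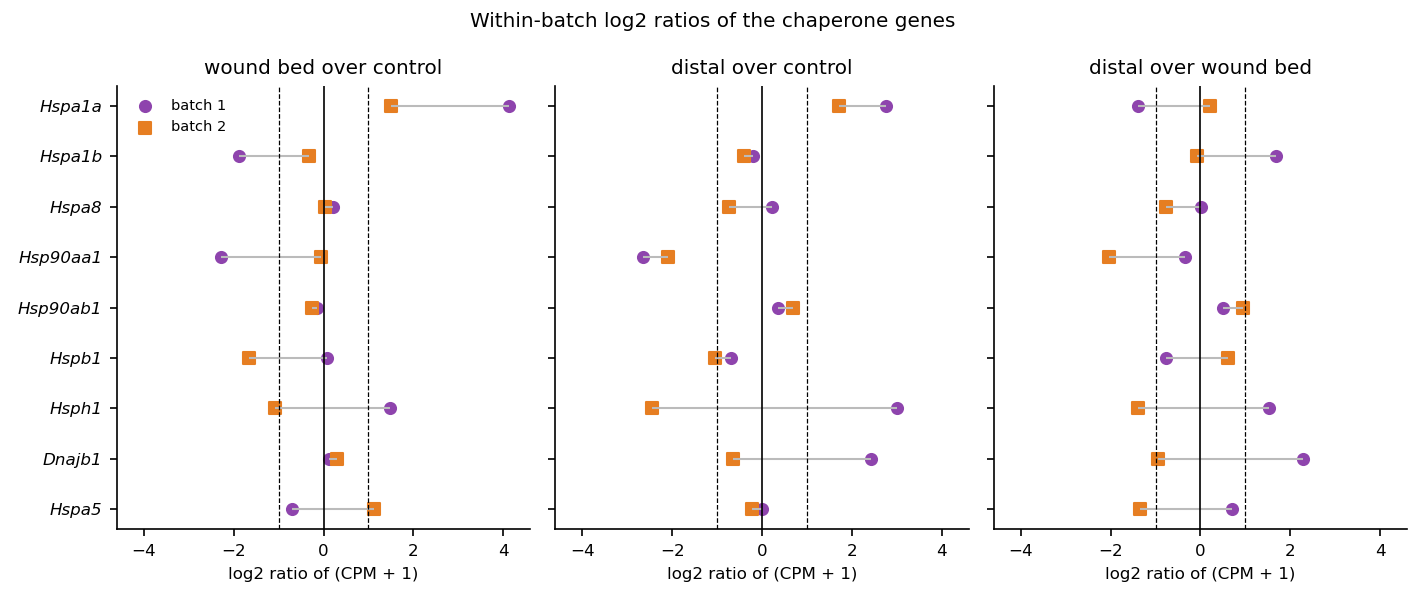
Log2 ratio of (CPM + 1) of each chaperone gene (x axis) in batch 1 (circles) and batch 2 (squares), for wound bed over control, distal over control and distal over wound bed; dashed lines mark a size of 1. Both batch points lie past the same dashed line for Hspa1a in the first 2 panels and for Hsp90aa1 in the second, and for no gene in the third.

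Hspa1a, a stress-inducible HSP70 gene of chromosome 17 (34969190 to 34972156, minus strand), overlaps the predicted gene Gm20481 on the other strand. It had 31.5 and 6.94 CPM in wound bed cells of batches 1 and 2, 11.5 and 8.20 CPM in distal cells, and 0.851 and 1.80 CPM in control cells. All wound bed and distal plates were above both control plates, by log2 ratios of 4.14 and 1.5 in the wound bed and 2.76 and 1.72 in distal cells. Its counts were small, at 57 and 23 reads in wound bed plates, 87 and 29 in distal plates, and 3 and 9 in control plates. Taken without a pseudocount, the batch 1 fold over the 3 control reads was 37.1 in the wound bed, with a counting interval of 12.1 to 185, and 13.5 in distal cells, with one of 4.48 to 66.8. These intervals treat reads as independent, although PCR copies of 1 molecule are counted as separate reads here. Single cells carried many of the Hspa1a reads: 1 cell per plate held 45.6% and 56.5% of the wound bed reads, 55.2% in each distal plate and 33.3% in each control plate. Without the fullest cell of each plate, the wound bed ratio of batch 2 was 0.95 and the rule was not met. Nor was it met in the wound bed with every cell weighted equally, or in either comparison after thinning to 10000 reads, with a pseudocount of 10, or where reads in 25% of cells were asked for. The batch 2 direction of wound bed over control turned with equal weights (-0.44) and after thinning (-0.85). Cells with a read numbered 12 of 85 in the wound bed, 10 of 81 in distal skin and 8 of 84 in control, and after thinning 7 of 78, 4 of 77 and 5 of 83. At least 5 reads were in 5 of 85 wound bed cells, 5 of 81 distal cells and 0 of 84 control cells. A count of 0 of 84 allows a share of up to 3.57% of control cells.

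Hspa1b, the other inducible HSP70 gene (chromosome 17, 34956436 to 34959238, minus strand), gave most of the reads of the pair. It had 63 and 78.2 CPM in wound bed cells, 203.7 and 74.4 CPM in distal cells, and 234.5 and 98.6 CPM in control cells. Batch 1 distal and control plates stood above the other 4. Log2 ratios were -1.88 and -0.33 for wound bed over control and -0.20 and -0.40 for distal over control, and the rule was met in neither. In distal batch 1, 1 cell held 48.2% of its reads, and in control batch 1 37.1%. Of all reads of the pair, 3497 were given to Hspa1b and 208 to Hspa1a (5.61%). Both genes had reads in 20 cells, Hspa1b alone in 144, Hspa1a alone in 10 and neither in 76. In GENCODE transcripts, 63.8% of the 31-base windows of Hspa1a were also in Hspa1b, and how reads that match both were shared out is not given in the sources used here. Summed as 1 gene, an alternative chosen after seeing the data, the pair had ratios of -1.31 and -0.24 in wound bed over control and -0.13 and -0.28 in distal over control. The higher level of Hspa1a applies to the reads assigned to that symbol. Because Hspa1b held most reads, the sum mostly follows Hspa1b. It therefore cannot show whether the Hspa1a difference lies in how reads were shared out.

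Hspa8 (chromosome 9, 40800984 to 40810087, plus strand) is the constitutive HSP70 that also strips clathrin from vesicles. Its level was 335 and 470 CPM in wound bed cells, 336 and 276 CPM in distal cells, and 289 and 457 CPM in control cells. Plates of the 3 regions overlapped, with ratios of 0.21 and 0.04 for wound bed over control and 0.21 and -0.73 for distal over control. Distal over wound bed gave 0.002 and -0.77. In distal batch 1, 1 cell held 39.9% of the reads. The batch 1 direction of distal over control turned without cells over 500000 reads (-0.15), with equal weights (-0.48) and after thinning (-0.43). It stayed in cells with at least 2000 genes (0.23) and with total counts (0.06). In batch 1, distal over wound bed was -0.62 with equal weights and after thinning, and -0.54 with total counts. None of these met the rule. Among cells with a read, the Hspa8 median was 306 and 334 CPM in wound bed plates, 213 and 293 CPM in distal plates, and 279 and 499 CPM in control plates. The predicted gene Gm15459 shares 38.6% of the Hspa8 windows and held 216 reads beside 8984 for Hspa8.

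Dnajb1 (chromosome 8, 83608193 to 83612653, plus strand), the J-domain partner that brings clients to HSP70, had 40.9 and 76.1 CPM in wound bed cells, 204.6 and 39.3 CPM in distal cells, and 37.4 and 62 CPM in control cells. Distal batch 1 stood above the other 5 plates and distal batch 2 among them. Ratios of distal over control were 2.42 and -0.64, with opposite signs. The batch 2 sign turned with every cell weighted equally (3.57 and 0.17) and after thinning (4.35 and 0.07). In distal batch 1, 18 of 32 cells had a read, the fullest of them with 23.3% of the reads. Hsph1, the exchange factor (chromosome 5, 149614287 to 149636376, minus strand), had 4.98 and 19.3 CPM in wound bed cells, 16.1 and 6.79 CPM in distal cells, and 1.13 and 41.8 CPM in control cells. Those levels came from 5 wound bed, 6 distal and 7 control cells, and on each plate 1 cell held between 64.6% and 95.1% of the reads.

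Hsp90aa1, the inducible cytosolic HSP90 (chromosome 12, 110690605 to 110702728, minus strand), had 229.5 and 534.7 CPM in wound bed cells, 179.8 and 129.8 CPM in distal cells, and 1128 and 553.5 CPM in control cells. Both distal plates were below both control plates, with log2 ratios of -2.64 and -2.08, and below both wound bed plates, with -0.35 and -2.03. Ratios of wound bed over control were -2.29 and -0.05. In control batch 1, however, 1 cell held 3639 of the 3978 reads (91.5%). Left out, an alternative chosen after seeing the data, that cell took the distal over control ratio of batch 1 to 0.76 and the wound bed over control ratio to 1.11, and the rule was met in neither. Batch 2 did not rest on 1 cell, since its fullest control cell held 25.2% of the reads. Detection ran the other way: 51 of 81 distal cells (63%) had a read, against 42 of 85 in the wound bed (49.4%) and 36 of 84 in control (42.9%), so no order is read from the shares. Among cells with a read, the median was 357 and 567 CPM in wound bed plates, 190.5 and 234.9 CPM in distal plates, and 146 and 1232 CPM in control plates. In batch 2, 29 of 49 distal cells had reads at the lower median and 23 of 56 control cells at the higher one. Predicted genes share up to 46.7% of its windows, and Gm12346 and Gm5844 held 51 and 69 reads beside its 10750.

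Hsp90ab1, the constitutive HSP90 (chromosome 17, 45567775 to 45573271, minus strand), had 994.9 and 1443 CPM in distal cells, 699.6 and 747.9 CPM in wound bed cells, and 776.3 and 890.6 CPM in control cells. Summed over cells, both distal plates were above all 4 others. Log2 ratios were 0.36 and 0.70 for distal over control and 0.51 and 0.95 for distal over wound bed, in both batches below the size the rule asks for. Median cells ran at 588 and 1966 CPM in distal plates, 726 and 413 CPM in wound bed plates, and 349 and 952 CPM in control plates, so in batch 1 the median wound bed cell was above the median distal cell. The batch 1 direction of distal over control turned without the cells over 500000 reads (-0.13), with equal weights (-0.21) and after thinning (-0.11). That of distal over wound bed turned with equal weights (-0.29), after thinning (-0.17) and with total counts in place of TMM (-0.03). Wound bed over control gave -0.15 and -0.25. Its batch 1 direction turned with total counts (0.24), with equal weights (0.08) and after thinning (0.05).

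Hspb1, the small heat shock protein (chromosome 5, 135887919 to 135889563, plus strand), had 51.4 and 77.6 CPM in wound bed cells, 29.9 and 119 CPM in distal cells, and 48.5 and 245.6 CPM in control cells. Control batch 2 stood above the other 5 plates. Ratios were 0.08 and -1.65 for wound bed over control and -0.68 and -1.04 for distal over control. Without repeat-rich cells distal over control was -1.56 and -1.01, which met the rule, and wound bed over control -0.79 and -1.71. In cells with at least 2000 genes batch 1 turned to 3.20 for distal over control and was 3.79 for wound bed over control. Distal over control in batch 1 also turned without cells over 500000 reads (0.31), with equal weights (0.30) and after thinning (0.41). Cells with a read numbered 50 of 85 in the wound bed, 44 of 81 in distal skin and 35 of 84 in control, so control had the smallest share although control batch 2 had the highest level. At equal depth the shares were 39.7%, 37.7% and 34.9%, with overlapping intervals. Its pseudogene Hsp25-ps1 shares 52.3% of its windows and held 33 reads beside 2396.

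Hspa5 (chromosome 2, 34771970 to 34777547, plus strand) folds secreted proteins and keeps the stress sensors of the endoplasmic reticulum silent. It had 125.5 and 141.6 CPM in wound bed cells, 203.8 and 55.4 CPM in distal cells, and 204.4 and 64.8 CPM in control cells. In control batch 1, 1 cell held 67.3% of the reads, and in distal batch 1 53.8%. Wound bed over control gave -0.70 and 1.12, and the batch 1 sign turned without the fullest cell of each plate (0.45 and 0.86), with equal weights (0.57 and 0.75), after thinning (0.77 and 0.61) and without repeat-rich cells (0.57 and 1.07). Distal over control gave -0.004 and -0.22, against 0.68 and -0.68 without the fullest cells, 0.35 and 0.57 with equal weights, 0.59 and 0.09 after thinning, and 1.26 and -0.20 without repeat-rich cells. None of these met the rule.

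Whether the same cells carried several chaperones was described by Spearman correlation over the cells of each plate, thinned to 10000 reads. Cells of a plate share library preparation and perhaps an animal, so no p is given. The 36 pairs had a median of 0.01, beside 0.03 for all pairs of the 591 genes read in at least 25% of the thinned cells of every plate. Hspa8 and Hsp90ab1, the constitutive pair, stood highest with a median of 0.35. Their correlation was 0.31 and 0.41 in wound bed plates, 0.12 and 0.38 in distal plates, and 0.01 and 0.43 in control plates, and each ranked 6 of 590 among the other's partners. Batch 2 plates were at 0.38 or above, and the median of batch 1 was 0.12. Pearson correlation on the log scale gave a median of 0.09. Hspa8 with Hsp90aa1 (median 0.13) and Hsp90aa1 with Dnajb1 (0.10) were the other pairs above 0 in all 6 plates, where 9.70% of all pairs of the 591 genes were. Dnajb1 was not among the 591. Hspa1a with Hspa1b had a median of -0.15, and Hspa1b with Hspa8 also -0.15. In all cells at their own depth, Hspa1a with Hspa1b gave -0.10, with plates from -0.27 to 0.25. Hspa1b with Hspa8 gave -0.0005 there, with plates from -0.31 to 0.04. Hspa1a had a read in 16 of 238 thinned cells, so its correlations rest on few cells.

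**Figure D4:**
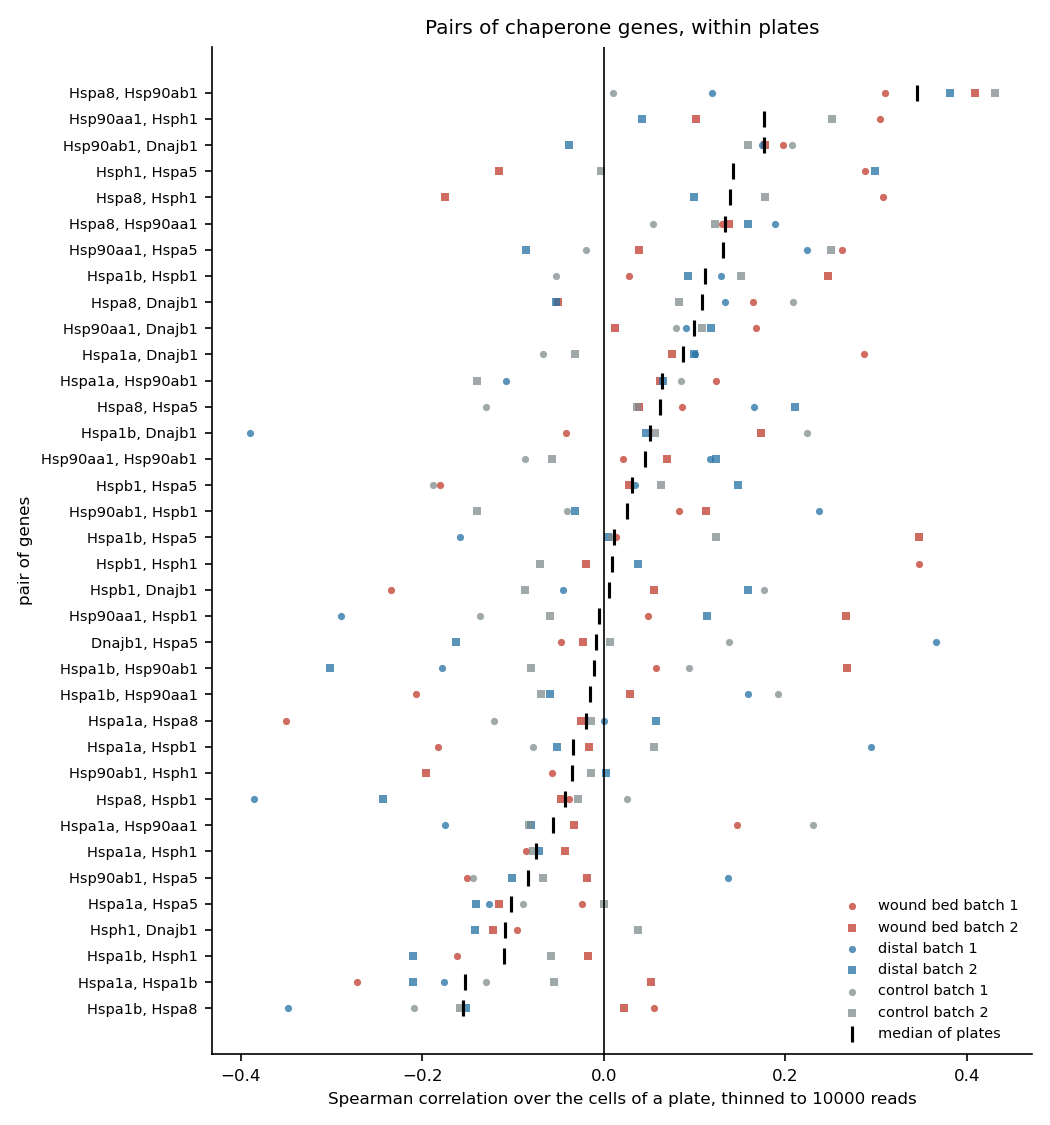
Spearman correlation over the cells of each plate (x axis) for the 36 pairs of chaperone genes (y axis), in cells thinned to 10000 reads; circles are batch 1, squares batch 2 and black ticks medians of plates. Hspa8 with Hsp90ab1 is at the top with a median of 0.35, and most pairs lie on both sides of 0.

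By the stated rule, the genes most like the mean of the 9 chaperones over the 6 plates were Tagln2 (median correlation 0.30), an actin-binding protein, Plp2 (0.25), the galectin Lgals3 (0.23), Trim29 (0.22), Hypk (0.22), S100a16 (0.20), the translation factor subunit Eif3a (0.20) and cytoplasmic actin Actg1 (0.20). Of 476 genes eligible, 49 were above 0 in every plate. Ifitm3 (-0.12), an interferon-induced membrane protein, was the 1 gene below 0 in every plate. The chaperone mean also went with the number of genes detected per thinned cell, with a median of 0.48, and 23.5% of the 591 genes were above 0 with that number in every plate. Hsp90ab1 alone gave 0.44. How far detected genes underlie the pair correlations was not tested.

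Epidermal layer was read from marker scores, the mean log2(CPM + 1) of 11 basal markers such as Krt5 and Krt14 and of 13 suprabasal markers such as Krt1 and Krt10. Hspb1 went with the suprabasal score in all 6 plates, at 0.06 and 0.16 in wound bed plates, 0.55 and 0.56 in distal plates, and 0.12 and 0.48 in control plates (median 0.32). Of the 591 genes, 13.2% were above 0 with that score in every plate, and the 95th percentile of their medians was 0.31. Hspb1 itself was not among the 591, with a read in 14.3% of the thinned cells of control batch 1. Hspa8 went with the basal score in all 6 plates (median 0.30, range 0.18 to 0.45), where 10.8% of genes did. The 95th percentile of their medians was 0.33, above that of Hspa8. Hsp90aa1 was also above 0 with the basal score in all 6 plates, from 0.03 to 0.27, and Hsph1 on the 4 plates with a value. With the suprabasal score Hspa8 was below 0 in all 6 plates (median -0.14), where 7.61% of genes were. Hspa1a and Hspa1b had medians of 0.20 and 0.17 with the suprabasal score and were above 0 in 5 plates each. Medians with the suprabasal score were 0.14 for Hsp90ab1, 0.01 for Dnajb1, -0.02 for Hspa5, -0.07 for Hsp90aa1 and -0.10 for Hsph1, which had a value on 4 plates, and with the basal score 0.19 for Hsph1, 0.15 for Dnajb1, 0.12 for Hsp90ab1, 0.10 for Hsp90aa1, 0.04 for Hspa5, -0.10 for Hspa1b, -0.14 for Hspa1a and -0.17 for Hspb1. With the upper hair follicle score, Hspb1 was above 0 in all 6 plates (median 0.17), where 4.40% of genes were. The other 8 lay on both sides of 0, with medians from -0.17 for Hsph1 to 0.17 for Hspa1b.

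**Figure D5:**
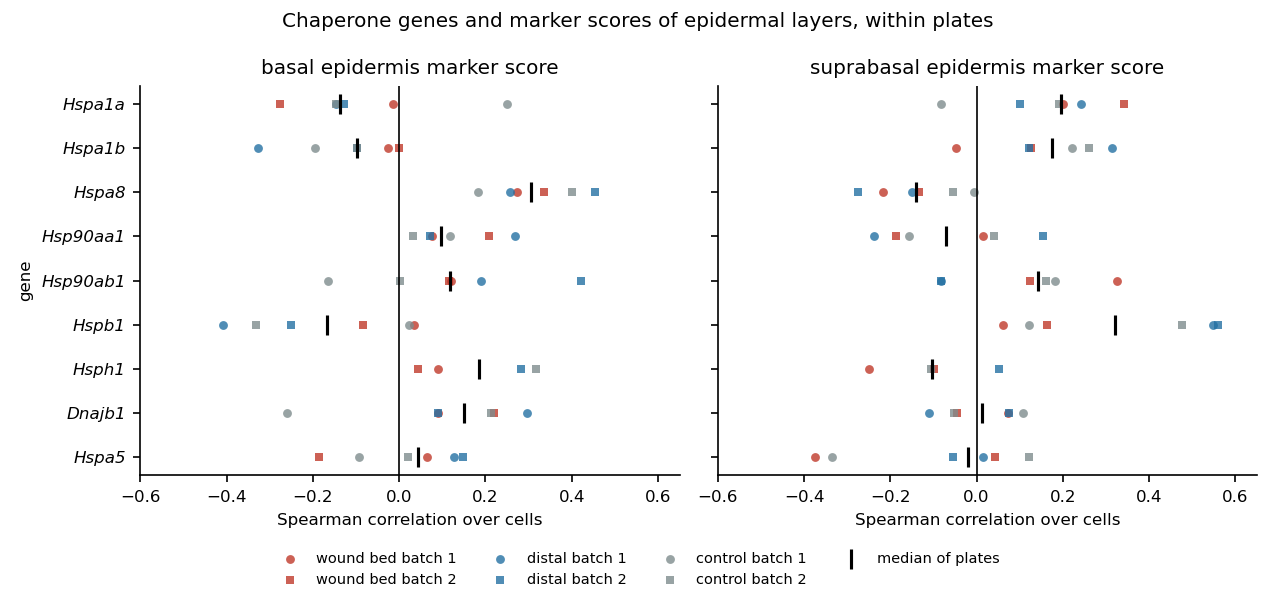
Spearman correlation over the cells of each plate (x axis) between each chaperone gene and the basal (left) or suprabasal (right) marker score; circles are batch 1, squares batch 2 and black ticks medians of plates. Hspb1 is right of 0 on all plates for the suprabasal score, and Hspa8 and Hsp90aa1 are right of 0 on all plates for the basal score.

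Partners of the 9 chaperones were read from lists of the same pathways, and the values given for them are log2 ratios in batches 1 and 2. How far single cells carried the reads of a partner gene was not tested. Of 15 other cytosolic HSP70 partners considered in wound bed over control, 1 was higher and 3 lower, beside 7.83% higher and 8.24% lower over all genes. Dnajb4, a J-domain protein, was higher by 3.06 and 1.09. St13 (-2.64 and -1.64), which steadies HSP70 on its clients, was lower, as were Stub1 (-2.65 and -2.01), the ubiquitin ligase of misfolded clients, and Hspa4l (-2.19 and -1.17), an HSP110 relative. Stub1 rested on 2 and 28 reads of wound bed plates, and Dnajb4 on 10 reads of control batch 1. In distal over control, Dnajb4 was higher by 3.91 and 1.79 and Hspa2, an HSP70 best known from germ cells, lower (-1.23 and -1.13), 1 each of 14 considered, beside 8.07% higher and 6.09% lower over all genes. Dnajb4 had 31 and 64.3 CPM in wound bed cells, 56.8 and 104.6 CPM in distal cells, and 2.84 and 29.6 CPM in control cells.

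Among HSP90 co-chaperones, Chordc1 (1.19 and 2.79) was higher and the myosin co-chaperone Unc45a (-2.10 and -2.58) lower in wound bed over control, 2 of 8 considered, where 16.1% of all genes met the rule. Unc45a rested on 4 and 10 reads of wound bed plates. Ptges3 (p23), which closes the HSP90 cycle, was lower in distal over control (-1.24 and -1.46), 1 of 9 considered, where 14.2% of all genes met it. It had 225.5 and 69.8 CPM in distal cells and 532.5 and 194.4 CPM in control cells. Hsp90aa1 was lower in the same comparison before its fullest control cell was left out. Of 17 genes of the endoplasmic reticulum list in each comparison with control, Dnajb11 (1.35 and 1.84), a partner of Hspa5, was higher in the wound bed, and Creld2 (-1.21 and -2.92) was lower in distal cells, 1 of 17 each time. Of 14 chaperonin and prefoldin genes, Pfdn4 was higher in the wound bed (2.29 and 2.27) and Vbp1 lower in distal cells (-1.06 and -1.15), 1 of 14 each time. For both lists these counts lie below the 16.1% and 14.2% of all genes that met the rule. Pfdn4 and Vbp1 encode prefoldin subunits, which hand actin and tubulin to the chaperonin.

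In distal over wound bed, the mitochondrial list had 3 of 7 genes higher and 0 lower: Dnaja3 (3.10 and 1.47), Lonp1 (2.22 and 1.43) and Trap1 (1.05 and 2.14), the last an HSP90 of mitochondria. The background of genes higher there was 9.59%. Lonp1 rested on 47 and 32 reads of distal plates, against 1 and 9 reads of wound bed plates. In wound bed plates Dnaja3 had 8 and 7 reads and Trap1 13 and 11. Of 14 cytosolic HSP70 partners, Dnajc7 (1.56 and 1.02) and Hspa14 (1.59 and 2.30) were higher and Dnajb6 (-1.36 and -1.25) and Hspbp1 (-1.34 and -1.05) lower. Of 9 HSP90 co-chaperones, Unc45a (1.69 and 2.70) was higher, over 4 and 10 wound bed reads, and 0 lower. Of 18 endoplasmic reticulum genes, Dnajc3 (2.87 and 1.16) was higher and Pdia4 (-1.04 and -2.55) lower. Of 14 chaperonin and prefoldin genes 0 met the rule, where 14.9% of all genes did. Heat shock factors and their regulators had 1 gene considered and 0 met the rule, and of the other small heat shock proteins 2 were considered and 0 met it.

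Immediate early genes, which tissue dissociation is known to switch on together with Hspa1a and Hspa1b, were read in the same cells. Fos was higher in wound bed over control (3.24 and 1.43) and Jun in distal over control (1.96 and 1.14), each 1 of 11 considered, beside 7.83% and 8.07% of all genes higher. Jun (1.76 and 1.89), Ier2 (1.04 and 1.01) and Nfkbia (1.16 and 2.57) were higher in distal over wound bed, 3 of 11 considered, beside 9.59% of all genes. Within plates, the score of the list had a median correlation of 0.16 with Hspa1a, above 0 in 5 of 6 plates, and of 0.08 with Hspa1b. Over the 591 widely read genes, medians with that score had a middle value of 0.01 and a 95th percentile of 0.16. Hspa1a was too sparse to be among them, with a read in 16 of 238 thinned cells. The part of dissociation in the Hspa1a level was not tested.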

How the data were processed

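Expression was measured in 250 single cells, grouped by the region and batch in their labels. The authors deposited a whole-number read count per gene and cell. Per the submitters' processing notes, Salmon 0.13.1, Seurat and R 4.0.3 were used with mm10 (GRCm38), and the role of each is not given. All columns matched a label, and no 2 cells held identical values.

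Counts were summed per plate and scaled by TMM (edgeR 4.0.16, R 4.3.3), with a pseudocount of 1 CPM. All 9 chaperones are named, other list genes where they met the size rule, and the 8 genes most like the chaperone mean by a rule on genes read in at least 25% of thinned cells. Members, lists and rules were chosen with earlier results of these data known. Shares at equal depth and correlations used 10000 reads drawn per cell, without the 7 wound bed, 4 distal and 1 control cells below that depth. Shares have Clopper-Pearson 95% intervals. Both statistics were tested on simulated data. No doublets were called and no free RNA was subtracted. Alternatives changed scaling, cell weights, depth, filters, pseudocount, batches and single cells.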

Additional observations from a re-analysis of the deposited data

How the results depend on the processing

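The number of chaperones meeting the rule was 1 in wound bed over control, 2 in distal over control and 0 in distal over wound bed. The first was 0 with every cell weighted equally, with cells thinned to 10000 reads, with a pseudocount of 10, with a read in at least 25% of cells, and without the fullest cell of each plate. It was 3 in batch 1 only and 3 in batch 2 only, where 59.4% and 46.5% of all genes considered reached the size in that batch. The second was 1 with thinning, pseudocount 10, the 25% filter and without the fullest cells, the last keeping Hspa1a alone and the others Hsp90aa1 alone. It was 3 without repeat-rich cells (Hspb1 added), in batch 1 only (Dnajb1 added) and in batch 2 only (Hspb1 added). The third was 3 in batch 1 only and 2 in batch 2 only, where 55.3% and 54.8% of all genes reached the size. The cause was not tested. Over both batches, the median of the chaperones in wound bed over control was -0.04. It was 0.10 with total counts, -0.011 with DESeq2 (1.42.0) size factors, -0.078 with equal weights, -0.19 thinned, -0.10 in cells with at least 2000 genes, -0.23 without repeat-rich cells, -0.20 with the 25% filter, 0.13 with no filter, 0.17 without the fullest cells and -0.0042 in batch 2 only. In distal over control it was -0.19, against 0.50 in cells with at least 2000 genes and 0.44 without repeat-rich cells. In distal over wound bed it was -0.20, against 0.40 with equal weights and 0.53 thinned. The summed Hspa1a and Hspa1b gave -0.77 for wound bed and -0.20 for distal over control, where Hspa1a alone gave 2.82 and 2.24. Hspa1b alone, with most reads of the sum, gave -1.10 and -0.30. Of the 413 single-gene ratios, 389 stayed on their side of the rule, 47 of them with the other sign over both batches, 12 newly met it, 10 no longer did and 2 reversed. The median of the 27 shares of cells was 42.9%, against 29.8% at a minimum of 5 reads and 55.6% in cells with at least 2000 genes. The median of the 36 correlations moved under no alternative by more than the plates' spread. Over all genes, total counts moved the batch 1 median of wound bed over control to 0.40, where TMM gave 0.03, and of distal over wound bed to -0.25, where TMM gave 0.25; genes meeting the rule there were 49.7% higher, against 64.5%. Leaving out repeat-rich cells moved the batch 1 median of distal over control to 0.93, against 0.23. Genes meeting the rule in wound bed over control were 16.1% of those considered, 8.85% with pseudocount 10, 10.7% with the 25% filter and 7.38% with no filter. No paired analysis was possible because the labels give the regions no shared replicate numbers and no test was run; plates were set side by side within batches. Depth limits sparse genes most: Hspa1a rests on 208 reads and Hsph1 on 432.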

Other observations

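The 6 cells with the largest summed level of the 9 chaperones were all control cells, 5 of batch 2 and 1 of batch 1. The highest had 12893 CPM, of which Hsp90aa1 gave 697 reads of a total of 67012, beside 75 reads of Hspb1 and 57 of Hspa5. The cell ranked 4 had 1 read of Hsp90aa1 and instead 246 of Hsp90ab1 and 117 of Hspa8. None of these 6 held a read of Hspa1a, and 5 of them held a read of Hspa1b. The largest summed level in a wound bed cell was 5164 CPM and in a distal cell 5964 CPM.

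Further relations of the cytosolic HSP90 genes with other chaperone systems were seen within plates. Hsp90ab1 had a median correlation of 0.27 with the score of 14 chaperonin and prefoldin genes, from 0.23 to 0.43 and above 0 in all 6 plates. Medians of the other chaperones with that score ran from -0.12 for Hspa1b to 0.26 for Hspa8, with Hsp90aa1 at 0.10. Hspa1a and Hspa5 were above 0 in all 6 plates as well. Hsp90aa1 had a median of 0.34 with the score of 23 genes of the endoplasmic reticulum list, from 0.07 to 0.47. Medians of the other chaperones there ran from -0.08 for Hspa1a to 0.19 for Hsp90ab1, and Dnajb1 was also above 0 in all 6 plates. Correlations with the number of detected genes had medians of 0.44 for Hsp90ab1 and 0.22 for Hsp90aa1, and its part in these relations was not tested. The share of all genes above 0 in every plate was not computed for either score. These relations therefore have no background beside them and cannot be called particular to the chaperones.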
